A study of Drosophila melanogaster with 4 samples.

Results

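The transcripts described here are isoforms without a predicted coding sequence (CDS) that were listed at loci where at least 1 other isoform has one. They were chosen by the annotation alone. An isoform was a member when it had no CDS line and another isoform with the same locus identifier had CDS lines. This gave 1533 isoforms of 40180 in the catalogue (3.82%), at 849 of the 7763 loci with a coding isoform. The absence of a CDS is therefore the choice itself and not a result.

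The catalogue comes from PacBio Iso-Seq, a long-read method that reads polyadenylated transcripts from end to end, of testes of Drosophila melanogaster. There were 2 samples with the genotype bamGAL4, labelled control, and 2 samples with the genotype bamGAL4/ KmgRNAi, in which kmg was knocked down through the same driver. All 4 samples carry the bamGAL4 driver, whose bam promoter is active in the dividing germ cells before meiosis, so that other cells of the testis are not direct targets of the hairpin. Each sample held 150 pairs of testes from males 0 to 2 days old, whose crosses stood at 25 °C for 3 days before the progeny moved to 29 °C. The deposited file is 1 annotation merged over all samples, and 0 of its lines name a sample or condition. Control and knockdown could thus not be compared, no value has replicate spread, and the depth behind an isoform is unknown. The intervals below are exact binomial (Clopper-Pearson) 95% intervals over isoforms or loci, which share genes and libraries and are not replicates.

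A gene's locus often gives rise to transcripts that encode no protein. Some keep an intron that breaks the reading frame, some stop early at a polyadenylation site inside an intron or a leader, and some start inside the gene and hold only its trailer. Others are transcripts of a neighbouring gene that overlap and are grouped into 1 locus. In a catalogue such as this one a CDS is a prediction from sequence, so an isoform without one has no predicted CDS, which is not a measurement of translation.

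CDS-less isoforms were short and had few exons. Their median spliced length was 1069 bases (25th to 75th percentile 794 to 1478, range 223 to 6372, n = 1533), against 2104 bases for the 6295 coding isoforms of the same loci. The 30239 coding isoforms of other coding loci had a median of 2011 bases, and the 2113 isoforms of loci with no CDS at all had a median of 1019 bases. In length the members thus lay next to the isoforms of noncoding loci, although they share their loci with coding isoforms. The median number of exons was 2 in members and 4 in the coding isoforms of the same loci, and the median genomic span was 1329 and 3694 bases. A single exon made up 34.4% of the members (528 of 1533, interval 32.1 to 36.9%) and 7.80% of the coding isoforms (491 of 6295, interval 7.15 to 8.49%).

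The same order held within loci, where each locus was compared with its own reference, the coding isoform with the longest CDS. The median member was shorter than the reference at 738 of 849 loci (86.9%, interval 84.5 to 89.1%) and had fewer exons at 679 (79.98%, interval 77.1 to 82.6%). Across loci the median member had a median of 52.5% of the length of the median coding isoform. At 432 loci (50.9%) every member was shorter than every coding isoform, and at 120 loci (14.1%) a member was longer than all of them. The members were also short against the coding sequence itself, since 877 of them (57.2%) had fewer bases than the CDS of their reference.

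**Figure D1:**
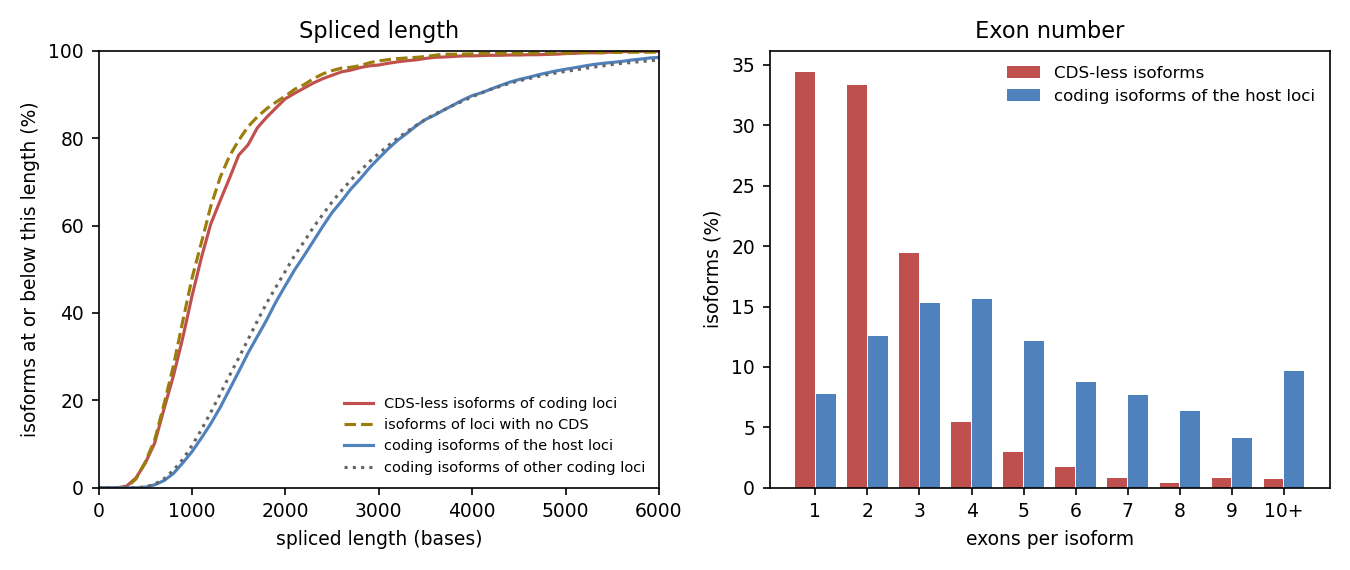
The left panel gives the percent of isoforms at or below each spliced length, in bases, for CDS-less isoforms of coding loci (red), coding isoforms of the same loci (blue), coding isoforms of other coding loci (dotted) and isoforms of loci with no CDS (dashed). The right panel gives the percent of isoforms by exon number for the CDS-less (n = 1533) and coding (n = 6295) isoforms of the host loci; the medians are 2 and 4 exons.

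The longest members were far above the median member, but not all were longer than the coding isoforms of their gene. A spliced isoform of CG31817 (2L, 16331378 to 16337872, minus strand, Release 6) had 6372 bases in 3 exons, while the coding isoform of that locus has 1160 bases. An unspliced isoform of Antp, a Hox gene of thoracic identity, had 6100 bases (3R, 6993129 to 6999228, minus strand). It shared only 5' untranslated exon bases with the coding isoforms, which have 1750 to 2924 bases, and so ran beyond their exons. A spliced isoform of RapGAP1, a GTPase-activating protein for Rap, had 4360 bases. The noncoding genes asRNA:CR44370 and lncRNA:CR42862 gave members with spliced lengths of 5581 and 5478 bases, and asRNA:CR44370 also an unspliced one of 5726 bases. Among the members with many exons were an isoform of CG32181 with 12, one of ymp with 10 and isoforms of CG34312 and Galphas with 9 each.

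Members differed in the part of the coding isoforms that they held. Of the 1533, 669 (43.6%, interval 41.1 to 46.2%) overlapped CDS of at least 1 coding isoform and 486 (31.7%, interval 29.4 to 34.1%) touched only 5' untranslated exons. Another 111 (7.24%) touched only 3' untranslated exons, 26 (1.70%) touched untranslated exons of both kinds, and 241 (15.7%, interval 13.9 to 17.6%) shared no exon base with any coding isoform of their locus. Measured in the same way against the other coding isoforms of the locus, coding isoforms overlapped CDS in 98.1% of cases (6059 of 6174, loci with at least 2 coding isoforms). They touched only 5' untranslated exons in 0.729%. A coding isoform has a CDS of its own within the locus, so this difference is partly fixed by the choice of members. Of the 241 members with no shared exon, 131 lay 5' of all coding isoforms of the locus, 48 lay 3' of them, 15 lay between them and 47 lay within the span of one.

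The part that was covered is clearest against the nearest coding isoform, the one that shares most exon bases, which 1292 members have. Its leader (5' untranslated region) was left untouched by 29.5% of these members, its CDS by 56.6% and its trailer (3' untranslated region) by 51.3%, so the leader was covered most often. At the first of 20 equal bins of its 5' untranslated region 56.0% of members had an exon, and at the last bin 27.1%. In the CDS the share was 20.9% at the first bin, 21.9% at the tenth and 33.6% at the last. In the 3' untranslated region it went from 35.4% at the first bin to 40.2% at the last. Coding isoforms of the same loci, set against their own nearest neighbour, stood highest in the CDS, with 48.8% at the start of the leader, 91.0% at the tenth bin of the CDS and 61.7% at the end of the trailer.

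**Figure D2:**
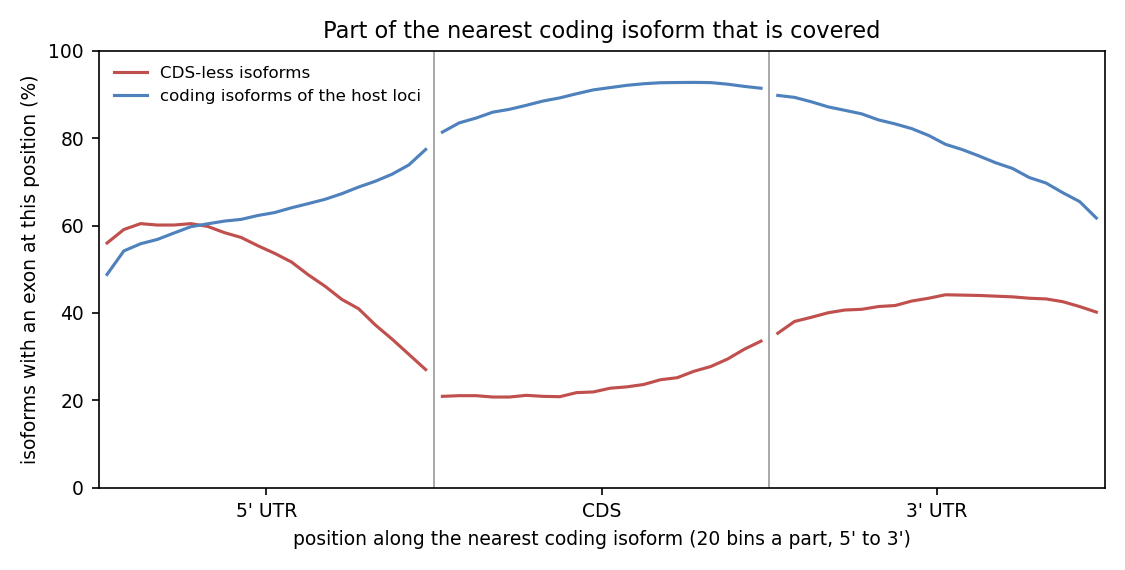
The horizontal axis is the position along the nearest coding isoform, 5' to 3', in 20 bins each for 5' UTR, CDS and 3' UTR, and the vertical axis is the percent of isoforms with an exon at that position. CDS-less isoforms (red) stand at 56.0% at the first bin of the leader and 20.9% at the first bin of the CDS, where coding isoforms of the same loci (blue) stand at 81.4%.

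The members that shared only leader exon bases mostly began where coding isoforms begin. Such members can also run into introns or other sequence. Of the 486, 403 (82.9%, interval 79.3 to 86.2%) had their 5' end within 100 bases of the 5' end of a coding isoform, and these lay at 273 of the 849 host loci (32.2%). Over all 486, the 3' end lay in an intron of the coding isoforms they overlap in 219 cases (45.1%, interval 40.6 to 49.6%) and in an exon in 263 (54.1%). Of the 486, 283 (58.2%) were spliced and 166 (34.2%) used an intron of a coding isoform exactly. Among the 403, the 3' end stood a median of 1823 genomic bases, introns included, before the nearest CDS start (25th to 75th percentile 406 to 8145). In 399 of the 403 it lay before the CDS start of every coding isoform that the member overlaps. The class holds no CDS base by definition, so this count is largely set by the choice. A further 112 members held the start codon position of the nearest coding isoform but not its stop, and 73 of these (65.2%, interval 55.6 to 73.9%) ended in an intron.

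The gene chinmo, which encodes a BTB zinc-finger transcription factor known in the testis for the maintenance of somatic stem cells and male identity, was among the 10 loci with the most members and shows this pattern. Its locus (2L, 1651260 to 1697822, plus strand) holds 7 CDS-less isoforms of 628 to 1918 bases and 12 coding isoforms of 2466 to 5228 bases, whose CDS has 1287 to 1815 bases. All 7 share only leader exon bases with the coding isoforms, and the one of 1006 bases has its first exon inside a leader intron. Their 3' ends stand at 1652949, 1653030, 1653508 (in 2 isoforms), 1653707 and 1690468 (in 2 isoforms), and the CDS of the coding isoforms starts at 1690638 or farther 3'. The isoforms that end at 1690468 cross the long leader introns and stop in the exon that holds the CDS start in other isoforms, and the other 5 stop in the first part of the leader. The lengths of the CDS-less and the coding isoforms thus did not overlap.

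Doa, a kinase that phosphorylates SR splicing factors, had 2 members of the same kind, unspliced isoforms of 966 and 1055 bases. They start together (3R, 28902016, plus strand) and share only leader exon bases with coding isoforms. Neither lies inside a single exon of a coding isoform. The 3 further Antp members overlapped CDS instead. They had 948 to 1458 bases in 2 exons, and each held 251 bases of the 1125-base reference CDS.

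Fewer members held a whole coding region. Against the reference, 129 of 1533 (8.41%, interval 7.07 to 9.92%) held both the start and the stop codon position, 102 the start only, 202 the stop only and 1100 (71.8%) neither. Against the nearest coding isoform, 190 of 1292 (14.7%, interval 12.8 to 16.8%) held both. Of these 190, 90 (47.4%) had the CDS of that isoform with introns retained and none added, 49 had other introns in the CDS, and 51 had the same introns in the CDS. Where introns of the CDS were retained, their summed length was a multiple of 3 in 24 of 90, and in 45 of 90 every intron of the CDS was retained.

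Where the introns of the CDS were the same, the CDS was mostly very short. The nearest coding isoform had a CDS under 300 bases in 44 of these 51 members (86.3%, interval 73.7 to 94.3%), against 2 of the 90 with retained introns. Over the whole catalogue only 346 of 36534 coding isoforms (0.947%) have a CDS that short. The number of coding isoforms stepped from 60 with a CDS of 270 to 299 bases to 445 with one of 300 to 329 bases. Counted over all coding isoforms of the locus, 95 members (6.20%, interval 5.04 to 7.52%) at 64 loci held a complete CDS of a coding isoform without interruption, and 76 of the 95 matched a CDS under 300 bases. Only 14 members held the start and stop of the reference and all its introns, 10 of them unspliced like the reference. The longest of the 14 at loci with a gene name, taken as 1 per locus, was an isoform of CG30325 (2131 bases). It holds a 642-base CDS of an isoform named CG30110. Next came isoforms of VhaM9.7-d, a subunit of the vacuolar proton pump (1623 bases, around a 267-base CDS), and of lncRNA:CR46455 (1491 bases). CG43816 (1156 bases, around a 162-base CDS) and the RNA-binding protein gene shep (1008 bases) followed. The reference CDS at this shep locus has only 27 bases, whereas the longest CDS among isoforms named shep has 1974 bases.

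The remaining 19 members hold a CDS of 300 bases or more that the file assigns to another isoform. Galphas, the stimulatory G protein alpha subunit, has 5 of them, with 1523 to 1771 bases and 9 exons each (2R, 23942537 to 23946928, plus strand). They carry the complete 1149-base CDS of a coding isoform that has 8 exons and 1379 bases. They differ from it at the 5' end, where they have 254 to 441 exon bases before the start codon position and the coding isoform has 108. E(bx), the large subunit of the nucleosome remodelling factor NURF, has a member of 2305 bases with an uninterrupted 1959-base CDS (3L, 234146 to 239442, minus strand). In CG13847 and CG31817 the CDS held has 1074 and 1071 bases. The coding isoform of CG13847 has 0 exon bases before its CDS, so whether that CDS is complete at its 5' end is not known. Which CDS the authors' prediction weighed for these isoforms was not tested.

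Most members did not carry the intron chain of a coding isoform. All introns matched those of a coding isoform in 62 members (4.04%, interval 3.11 to 5.15%), and in 38.3% of the coding isoforms of the same loci (2367 of 6174). A consecutive part of a coding chain made up 289 members (18.9%) and 13.1% of coding isoforms. Some but not all introns were shared in 225 members (14.7%) and 37.2% of coding isoforms. A splice site but no intron was shared by 180 members (11.7%, interval 10.2 to 13.5%) and 1.94% of coding isoforms, and 98 spliced members (6.39%) overlapped exons but shared no splice site. Unspliced members lay over an intron of a coding isoform in 119 cases (7.76%), inside 1 exon in 109 (7.11%) and across exon and other sequence in 210 (13.7%).

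**Figure D3:**
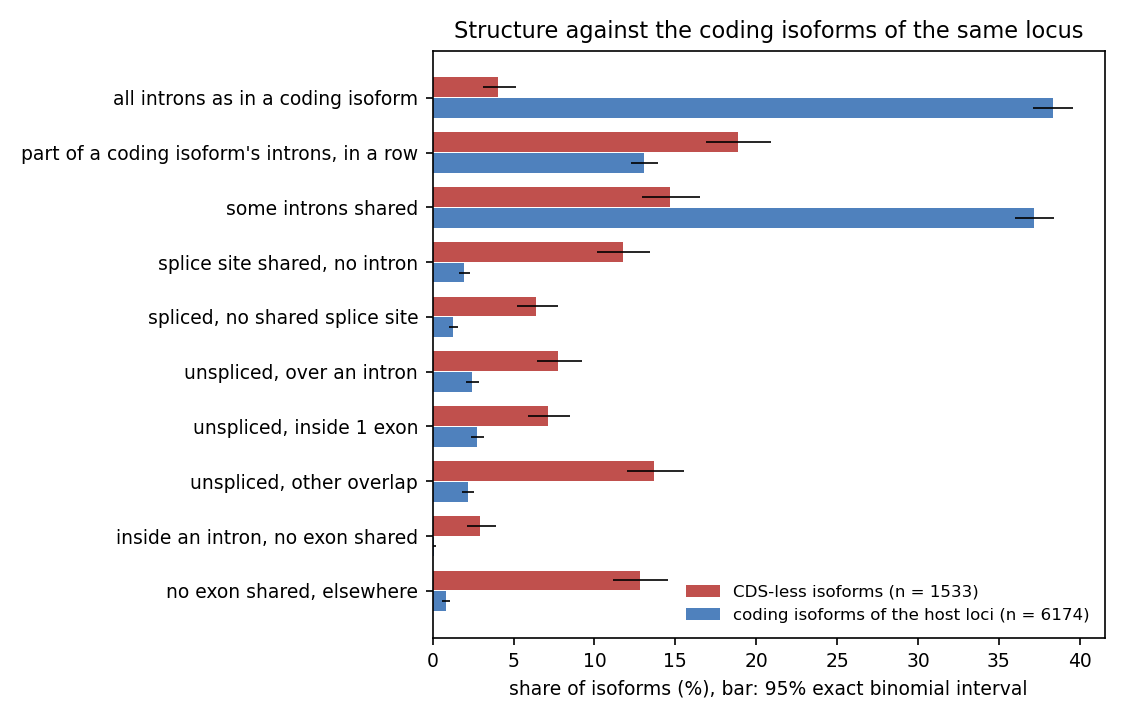
Bars give the percent of isoforms in each class of intron structure, measured against the (other) coding isoforms of the same locus, for CDS-less isoforms (red, n = 1533) and coding isoforms (blue, n = 6174), with exact 95% binomial intervals. The complete intron chain of a coding isoform is found in 4.04% of CDS-less and 38.3% of coding isoforms, and the last 2 classes, which share no exon, hold 15.7% of the CDS-less isoforms together.

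Retained introns were found in 294 members (19.2%, interval 17.2 to 21.2%) at 211 loci. An intron counted as retained when 1 exon of the isoform ran across it, with at least 1 base on both sides, and the intron is spliced in a coding isoform of the locus. By the same rule 1802 of 6174 coding isoforms (29.2%, interval 28.1 to 30.3%) retained an intron of another coding isoform, so retention as such was not more common among the members. The order depends on what is counted. Coding isoforms are longer and span more introns, and per spanned intron members retained 437 of 2057 (21.2%, interval 19.5 to 23.1%) and coding isoforms 2965 of 41149 (7.21%, interval 6.96 to 7.46%). Among spliced isoforms only, these shares were 13.2% and 6.59%. Among isoforms that span at least 1 intron, 37.5% of members (294 of 784) and 31.5% of coding isoforms (1802 of 5721) retained one. With the introns of the reference alone the shares were 8.35% of members and 5.05% of coding isoforms, a count in which the reference itself can retain none. With introns seen in at least 2 coding isoforms they were 8.22% and 14.8%.

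The introns that members retained were short. The 339 distinct introns had a median length of 73 bases, the 1135 retained by coding isoforms 85 bases, and all 7105 introns of the coding isoforms 148 bases. Under 100 bases were 62.2% (interval 56.8 to 67.4%) of the introns retained by members, 55.5% of those retained by coding isoforms and 44.7% of all introns. Of the 339, 149 (44.0%) lay in the CDS of a coding isoform, 151 (44.5%) 5' of it and 39 (11.5%) 3' of it, whereas 63.5% of all introns lay in the CDS. In the CDS, the length was a multiple of 3 for 49 of the 149 (32.9%, interval 25.4 to 41.0%), 182 of the 457 that coding isoforms retained (39.8%, interval 35.3 to 44.5%) and 34.5% of all. Of the 339 introns, 151 (44.5%) were also retained by a coding isoform, which is 13.3% of the 1135.

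Of the 294 members, 207 retained 1 intron, 57 retained 2, and the most was 9. Tsp66A, a tetraspanin, had a 2-exon member of 1453 bases that ran over 9 distinct introns of the coding isoforms (3L, 7467301 to 7468802, plus strand). Fer1HCH, the heavy chain of ferritin, had an unspliced member of 2283 bases that also ran over 9 (3R, 30385577 to 30387859, minus strand). Alternative splice sites make overlapping introns, so 9 introns here are not 9 separate gaps, and the nearest coding isoform of the Fer1HCH member has 2 exons. Unspliced members over 5 introns were found in Cht10, a chitinase, in Sprn and in gdl, a gene with testis transcripts. A spliced member of mil, which encodes a protein of the nucleosome assembly protein family, also retained 5. Among those with 4 were members of CG5554, of DnaJ-60, a DnaJ-domain protein, and of tra2, a splicing regulator of sex determination that is also required in the male germline.

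Over all members, 3' ends lay away from the ends of coding isoforms more often than 5' ends lay away from their starts. Within 100 bases of a coding end lay 802 of the 5' ends (52.3%, interval 49.8 to 54.8%) and 547 of the 3' ends (35.7%, interval 33.3 to 38.1%). Among the 703 members with the gene name of a coding isoform of their locus the shares were 57.5% and 56.5%, nearly equal. In coding isoforms they were 77.0% and 85.9%. Both ends matched in 15.2% of members and 65.5% of coding isoforms, and neither in 27.2% and 2.56%. Which end matched differed by kind of member. Members that touched only 3' untranslated exons ended at a coding end in 80 of 111 cases (72.1%) and members with CDS bases in 448 of 669 (67.0%). A leader-only member that stops before the CDS cannot reach such an end.

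A locus in this file can join neighbouring genes, and the members reflect that. Names were assigned from RefSeq gene spans. By name, 703 members (45.9%, interval 43.3 to 48.4%) had the gene name of a coding isoform of their locus, 350 (22.8%, interval 20.8 to 25.0%) bore a name that no coding isoform of the locus bears, and 480 (31.3%) had no name. Of the 350, 206 were named for a protein-coding gene, 104 for a long noncoding RNA gene and 27 for an antisense RNA gene. At least 2 named genes were found at 343 of 849 host loci (40.4%) and at 866 of the 5009 other coding loci with several isoforms (17.3%). The names of the members themselves count here, so a host can reach 2 names through a member. Host loci also list more isoforms than other coding loci (median 7 and 3). The part of either in this difference was not tested. All coding isoforms of the locus were named, and named for another gene, for 172 of the 350. For the other 178 at least 1 coding isoform had no name, and for 45 of these none had one, so these members may belong to the gene of an unnamed coding isoform. An example is a member named RpL41 that shares all introns and a 222-base CDS with an unnamed coding isoform. Of the 350, 164 (46.9%) shared only 5' untranslated exon bases and 99 (28.3%) shared no exon. Of the 703 with the gene's own name, 469 (66.7%, interval 63.1 to 70.2%) overlapped CDS.

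For some protein-coding genes no isoform that received the gene's name had a predicted CDS. This held for 395 of 8515 named protein-coding genes (4.64%) and for 108 of the 511 that have a member (21.1%, interval 17.7 to 24.9%), with 206 members among them. Such a gene has only CDS-less isoforms, and the 511 were picked for having one, so the higher share is partly fixed by that choice. At 42 of these 108 genes the locus also lists a coding isoform without a name, which may be the gene's own, and at 11 no coding isoform there has a name. Ggamma1, a G protein gamma subunit, had 9 isoforms of 691 to 1616 bases and 1 to 3 exons, all 5' of the coding isoforms of CG30349 (2R, 8901404 to 8903122, plus strand). AGO3, a Piwi-clade Argonaute of the germline, had 7 isoforms without a CDS, 6 of them at the locus of Spf30, a splicing factor. These 6 had 909 to 3153 bases and 5 to 9 exons, and 2 of them ran on to Spf30 (3L, 23554595 to 23716487, plus strand) and overlapped its 576-base CDS. ATPsynE, a subunit of the mitochondrial ATP synthase, had 6 isoforms at the locus of the histone methyltransferase Set8, and CG8788 had 6. The loci of ATPsynE and CG8788 also list a coding isoform without a name, which may be the gene's own. SclB had 4 isoforms of 858 to 2830 bases at the locus of Nepl9, whose single coding isoform has a 249-base CDS.

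Loci with many members show these kinds side by side. At l(2)41Ab (2R, 1336035 to 1443942, plus strand) 17 of 18 isoforms were CDS-less, with 930 to 3104 bases and 2 to 7 exons, beside 1 coding isoform of 2644 bases with a 765-base CDS. CG8229 had 10 members of 772 to 1073 bases beside 7 coding isoforms of 1363 to 2838 bases, with no overlap in length. At the locus of CG11593 none of the 9 members bore its name, and 2 were isoforms of Dpy-30L2.

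The other loci with many members were unlike these. Tif-IA, an initiation factor of RNA polymerase I, had 7 members of 1925 to 2111 bases and 2 coding isoforms of 2009 and 2037 bases, so that the lengths overlapped. All 7 members of CG2955 had 1 exon, with 754 to 1926 bases, and 6 of them ran over an intron of the coding isoforms, which have 2 or 3 exons. CG4631 had 7 members of 1608 to 3050 bases with 1 or 2 exons. Members outnumbered coding isoforms at 73 loci (8.60%), among which l(2)41Ab and the loci of Spf30, CG11593 and Nepl9 had some of the widest margins.

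**Figure D4:**
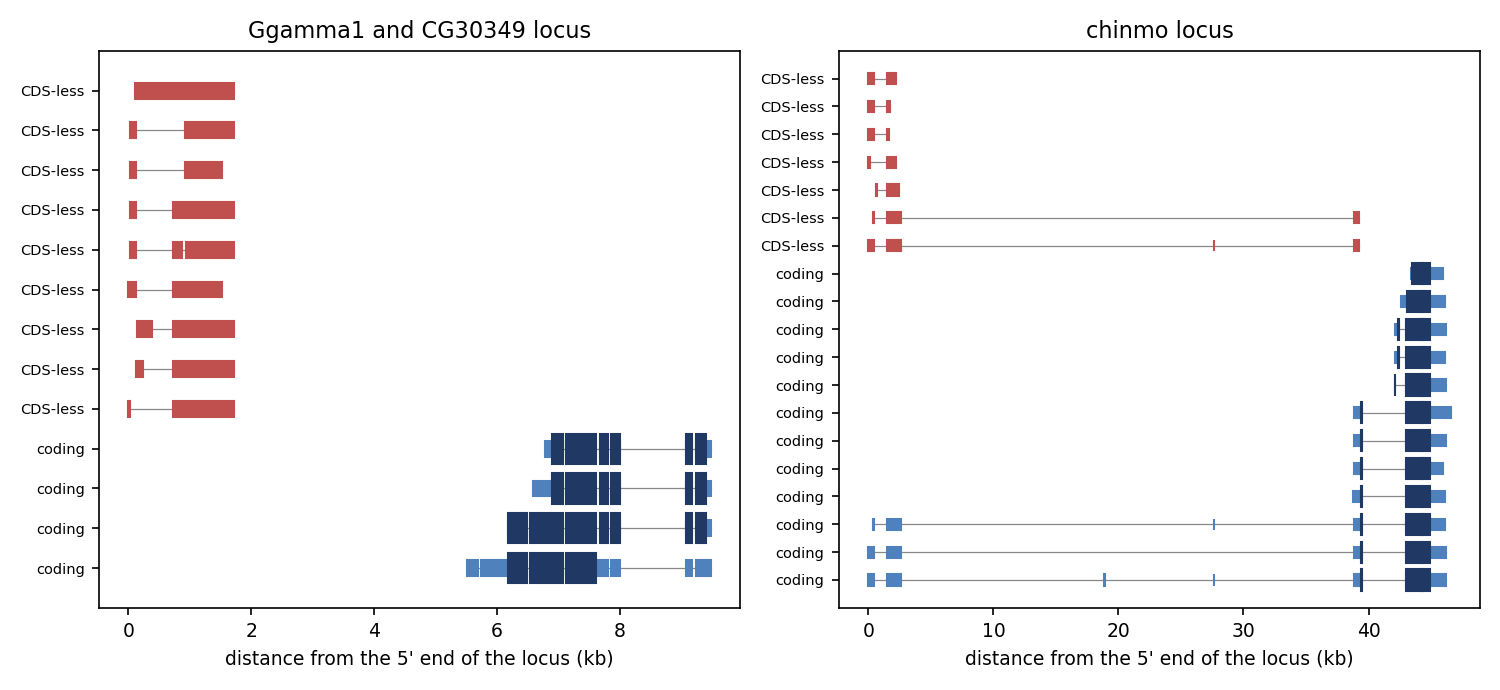
Exons (boxes) and introns (lines) of every isoform at the locus of Ggamma1 and CG30349 (left) and the chinmo locus (right), against the distance from the 5' end of the locus in kb. CDS-less isoforms are red, coding isoforms are blue, and their CDS is dark blue and taller. At chinmo all 7 CDS-less isoforms end before the CDS, and at the other locus the 9 CDS-less isoforms, all of Ggamma1, lie 5' of the 4 coding isoforms of CG30349 and share no exon with them.

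Host loci had many isoforms. A host locus listed a median of 7 isoforms and another coding locus 3, and the median genomic span was 9558 bases, against 4237 bases for other coding loci with several isoforms. Of loci with 2 isoforms 5.99% (81 of 1353) had a member, and the share was 11.2% at 3 to 5 isoforms, 18.2% at 6 to 10 and 28.2% at 11 to 20. Above 20 isoforms 66 of 165 loci had one (interval 32.5 to 47.9%). A locus with more isoforms has more chances to list a CDS-less one. As a share of all isoforms the members varied less, from 2.99% at 2 isoforms to 4.70% at 11 to 20 and 3.10% above 20. Most hosts (513, or 60.4%) had 1 member, 182 had 2, 71 had 3, and 83 had at least 4 and held 443 members.

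**Figure D5:**
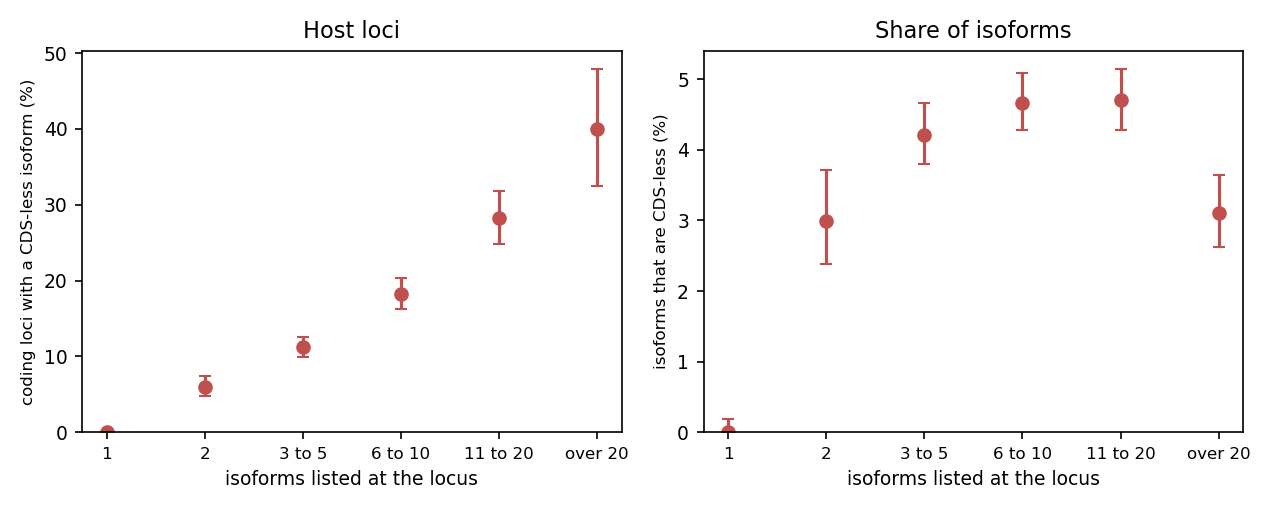
Both panels are split by the number of isoforms listed at the locus, with exact 95% binomial intervals as bars. The percent of coding loci with a CDS-less isoform (left) is 5.99% at 2 isoforms and 28.2% at 11 to 20, while the percent of isoforms that are CDS-less (right) lies between 2.99% and 4.70% in the classes with 2 or more.

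On the X chromosome fewer loci were hosts. There were 57 of 1219 (4.68%, interval 3.56 to 6.02%), against 12.1% on 2L, 12.96% on 2R, 11.5% on 3L and 11.8% on 3R. As a share of isoforms of coding loci, members made up 1.88% on X (77 of 4104, interval 1.48 to 2.34%) and 3.84% to 4.803% on the 4 autosomal arms. The Y had 2 coding loci and no member.

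Gene lists were read against the share of all named genes with at least 1 member, which was 6.9% (622 of 9013). Of 21 SR and hnRNP splicing factors found, 7 had a member (SF2, tra2, Hrb27C, Hrb87F, Hrb98DE, snRNP-U1-70K and Doa), with 10 members in all. These genes also list many isoforms, 166 for the 21. The members of Hrb87F, Hrb98DE and snRNP-U1-70K covered the 3' part of their genes. The Hrb87F isoform held the stop but not the start codon position in 753 bases, the Hrb98DE isoform likewise in 777 bases. The snRNP-U1-70K isoforms, of 1106 and 1359 bases, shared exon bases only with the trailer, and the longer one ran over a trailer intron.

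A list of 7 fly genes with regulated splicing was drawn up to look for retained introns. Only 2 of them were named here, tra and tra2, and each had 2 members. The tra members spanned 0 introns of the coding isoforms and retained 0. The members of tra, a splicing regulator of female identity, have 1367 and 1465 bases in 3 exons (3L, 16590060 to 16591654, minus strand). They are listed at the locus of spd-2, a centrosome gene, whose 2 coding isoforms both bear the name spd-2. One tra2 member had 1780 bases in 3 exons and retained 4 introns, and it held the start and stop codon positions of a coding tra2 isoform with a 540-base CDS. The other had 881 bases and held the stop only. Both lay on 2R between 14602018 and 14603916, minus strand.

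Of 24 spermatid differentiation genes 4 had a member. The Mst77F isoform, of a gene for a chromatin protein of sperm, was unspliced with 402 bases and held the stop codon position over 1 retained intron. The gdl isoforms had 1610 and 625 bases, and the former retained 5 introns. An ocn isoform had 683 bases. Mst87F, of the sperm tail, had 1 isoform in the catalogue, a CDS-less one of 417 bases at the locus of Nsf2.

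Of 70 ribosomal protein genes 7 had a member, with 12 members in all, close to the share over all genes. The RpL14 isoform of 1085 bases retained 1 intron. Both RpS27 members, with 695 and 1286 bases, held all 255 bases of the coding isoform's CDS, the shorter one without interruption. RpL39 was listed with 286 bases, and RpL41, RpS28-like and RpS29 had 2 members each at loci whose coding isoforms bear no name or another gene's name. No member was found for 9 genes of kmg and remodeller subunits, 13 meiotic arrest genes, 6 Y-linked fertility genes or 11 genes of nonsense-mediated decay and the exon junction complex. At these list sizes and a background of 6.9%, a count of 0 says little.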

How the data were processed

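Polyadenylated RNA of 4 testis samples was read by PacBio Iso-Seq in 24-hour runs, per the labels' protocols. The authors deposited 1 annotation for all samples, and its values (other units: start and end of each transcript, exon and CDS segment, and the frame) hold no counts, samples or gene names. Per the deposited file's name, models were merged with TAMA, corrected, filtered with tappAS and given CDS. The builds BDGP6 and dm6 (Release 6) come from the submitters' processing notes; the aligner, CDS tool, settings and versions were not given in the sources used here. Such filters decide which CDS-less isoforms remain.

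Members and gene lists were chosen with earlier results of these data known. The reference isoform was the one with the longest CDS. Ends matched within 100 bases. Gene names came from RefSeq gene spans: the strand was that of isoforms with an end within 200 bases of the gene's where at least 80% agreed (318 genes stayed ambiguous), and the gene had to hold at least 50% of the isoform. This named 34752 isoforms of 9013 genes. Genes named in the text were the 10 loci with most members, the 5 where members most outnumber coding isoforms, the 10 members with most retained introns, the 5 longest spliced, those with most exons, the longest with a complete reference CDS or none of it, and list genes. Unnamed loci were passed over. Genes described for an intact CDS, and those without any CDS, were chosen after their values were seen. Shares, computed with Python 3.11.15 and scipy 1.17.1, have exact 95% binomial intervals, and no test was run. The scripts classified 1000 of 1000 simulated loci correctly. Each of these had a single coding isoform and a member cut from it, so overlapping introns, joined genes and naming were not covered. Alternatives to locus, reference, intron and distance choices were tried, and 12 were added after seeing the data. No sequence was read. Some loci that this rule names are not reported here.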

Additional observations from a re-analysis of the deposited data

How the results depend on the processing

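Over 40 alternatives to 10 results, 15 values stayed within the spread used here (the 95% interval, or 1.5 times for a number) and 25 moved. No paired analysis was possible because the merged file carries no sample or replicate. Leaving out a replicate was not possible for the same reason. Counted by named gene in place of locus, there were 744 members in place of 1533. The median member was shorter than the median coding isoform at 83.9% of loci and shorter than the reference by at least 10% at 83.2%. It had fewer exons for 76.1% when every member was counted and at 73.8% of loci for spliced members. No CDS base of the reference was held by 70.6%, against 56.4% for the CDS of any coding isoform, 56.6% for the nearest one, 55.8% for members with the coding gene's name and 77.9% where under 10% of the CDS counted as none. Start and stop were held by 16.5% for any coding isoform, 14.7% for the nearest and 12.8% for members with the gene's name. Retained introns were found in 8.35% for introns of the reference, 8.22% for introns of at least 2 coding isoforms, 22.3% for the longest member, 30.4% for members with the gene's name and 37.5% for those that span an intron. For coding isoforms the first of these gave 5.05% and the second 14.8%, so that the order of members and coding isoforms turned for the former. Starts matched for 48.6% within 50 bases, 55.1% within 200 and 57.5% for members with the gene's name. For the latter, 56.5% of ends matched, against 35.7% of all members. Hosts were 14.5% of loci with at least 2 isoforms and 11.99% of spliced loci. The cause of these shifts was not tested beyond the change each alternative makes. Without read numbers, isoforms seen once and often cannot be told apart, and the absence of an isoform says nothing on depth.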

Other observations

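Members lay opposite to other genes more often than coding isoforms did. At least 50% of the exon bases fell on exons of the other strand in 227 of 1533 members (14.8%, interval 13.1 to 16.7%), in 293 of 6295 coding isoforms of the same loci (4.65%, interval 4.15 to 5.20%), in 5.02% of coding isoforms of other coding loci and in 10.1% of isoforms of loci with no CDS. Any overlap with such exons was about as frequent in members (29.7%) as in the coding isoforms of their loci (28.4%). Members are shorter, and the part of length in this difference was not tested.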
